A study of Mus musculus with 3 samples.

Results

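The Rab GTPases were described in chromatin-associated RNA of mouse macrophages. Members were all genes with a protein-coding transcript whose symbol was Rab followed by a number and, at most, a letter and a further number, which gave 59 of the 55536 annotated genes and of the 21901 protein-coding genes. No measured value is part of this rule, although earlier results of these data were known when it was chosen. The 3 libraries were made from primary macrophages grown from the bone marrow of C57BL/6J mice and exposed for 50 min to 100 ng/ml lipid A, the membrane anchor of lipopolysaccharide and a ligand of Toll-like receptor 4. They held total RNA of the chromatin fraction after removal of ribosomal RNA and formed 1 group of 3 biological replicates. Neither untreated cells nor another cell fraction was analysed here, so no level below says whether a gene was induced. The labels gave all 3 libraries 1 donor code, so the spread between them may be technical, and the age and sex of the animals were not recorded in the labels.

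Rab proteins are small GTPases that act as switches on membranes: bound to GTP they recruit effectors that move, tether or fuse a vesicle, and after GTP hydrolysis they are drawn off the membrane again. Exchange factors turn them on, GTPase-activating proteins turn them off, and a lipid added to cysteines at the end of the protein holds them in the membrane. In macrophages they direct phagosome maturation, the recycling of surface receptors, the traffic of Toll-like receptor 4, and cytokine secretion. RNA on chromatin is rich in transcripts still being made or processed, so the levels below are not those of cytoplasmic mRNA or of protein.

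The gene tables held 10496703, 17687379 and 14806118 expected counts in replicates 1, 2 and 3, for which the labels gave 1000, 250 and 500 ng of starting RNA. All 10 macrophage markers were detected, with summed levels of 575, 568 and 583 TPM. Of 46 markers of 10 other blood, stromal or vascular cell types, 5 were detected and 17 were listed at 0 in every library, and the whole set summed to 11.5, 16.4 and 13.9 TPM. In the second deposited quantification, described further down, the same set summed to 65.6, 57.8 and 63.8 TPM with 20 detected, and the macrophage markers to 1072, 869 and 776 TPM. Cd3d, a T cell marker listed at 0 in the first, reached a mean of 18.0 TPM there. Their part in the Rab levels was not tested. In these bulk samples, fewer cells with a transcript and less of it per cell cannot be told apart.

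The feature that lets a Rab protein carry its lipid could be read from the coding sequence of every member. The last 30 coding bases of 7 members are shown because they hold each arrangement of these cysteines found in the family. They are written 5′ to 3′ on the strand of the gene, from GENCODE M21 transcripts on GRCm38, without the stop codon and with the cysteine codons in capitals.
Rab14: ccccaaccccagagagaaggcTGTggcTGC
Rab7: gccaaggcctccgcagaaagcTGCagtTGT
Rab1a: ccagtcaagcagtcaggtggaggcTGCTGC
Rab8b: aagaccagtttcttccgcTGTtctctgctt
Rab5b: cagcagaacaagagccagTGTTGTagcaac
Rab20: cccaaacagactagatccgggTGTTGTgcc
Rab11a: aagccaaaggtgcagTGCTGTcagaacatc

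In 20 of the 59 members, Rab14 and Rab7 among them, the cysteine codons were the last and the third-last. In 15, such as Rab1a, they were the last and the second-last. The pair stood fourth- and third-last in 6 members, such as Rab5b, and fifth- and fourth-last in 6, such as Rab11a. Another 9, such as Rab8b, had only the fourth-last codon of these positions, with no cysteine beside it. In Rab20, Rab34 and Rab44 the pair stood third- and second-last. No member lacked a cysteine among its last 5 codons.

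Of the 59 members, 38 (64.4%) were detected, that is, had at least 10 expected counts in each library. The share over all protein-coding genes was 44.1%. A mean level of at least 10 TPM, a measure corrected for transcript length, was reached by 13 members (22.0%) and by 15.0% of all protein-coding genes. The median of the mean levels was 1.70 TPM over the members and 0.23 TPM over all protein-coding genes, and 7.11 and 4.88 TPM when only detected genes were taken. The Rab family thus held more detected genes than the protein-coding genes at large, and its detected members lay slightly above the median of detected genes.

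**Figure D1:**
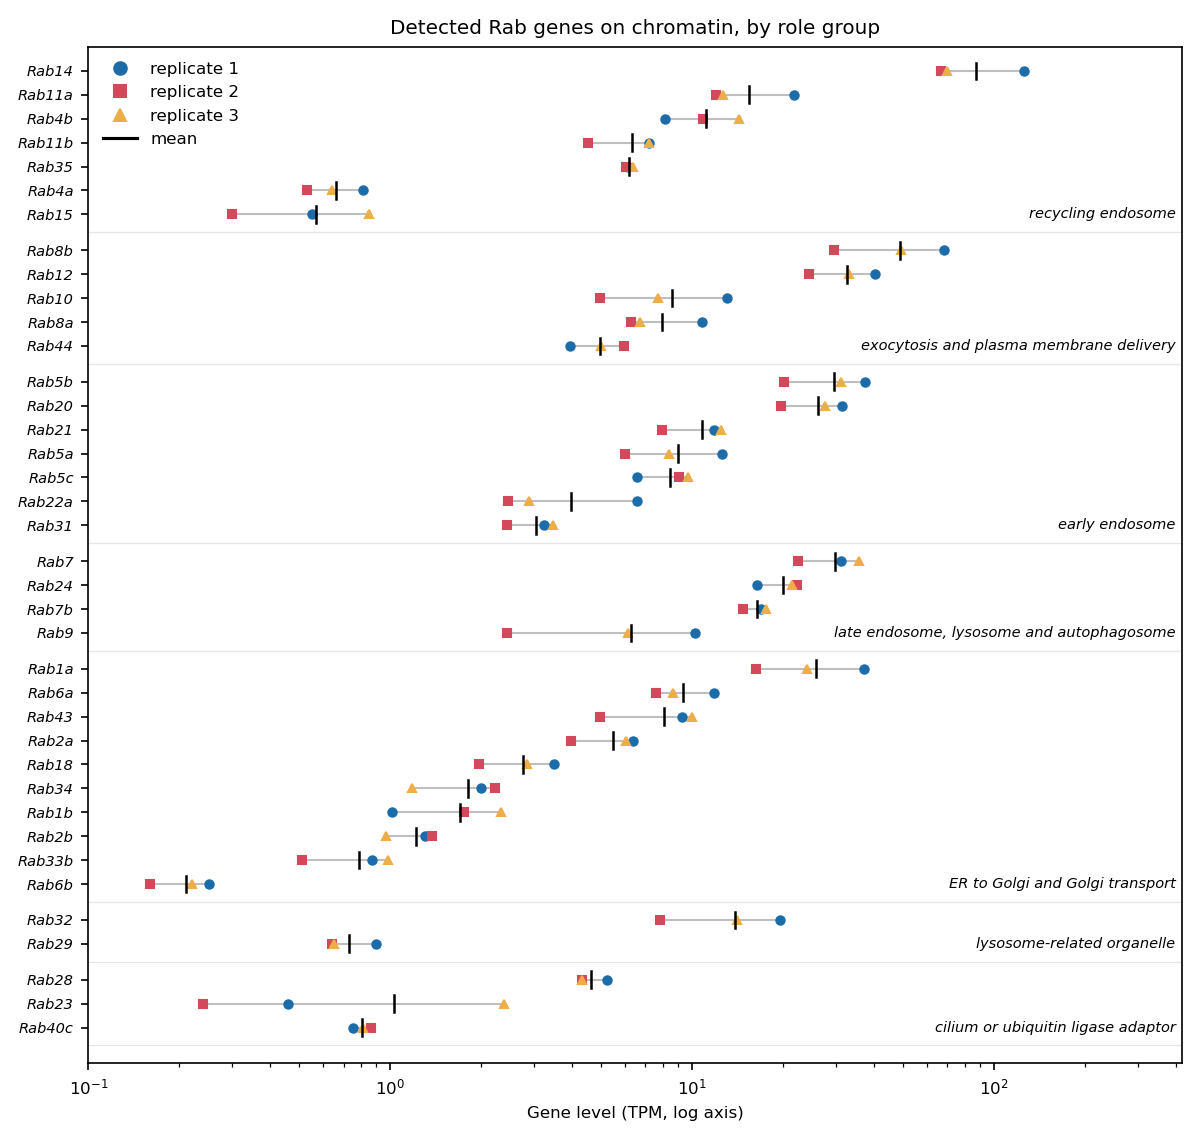
Level of each of the 38 detected Rab genes (TPM, log axis) in replicates 1 (circles), 2 (squares) and 3 (triangles), with the mean as a black bar, grouped by the role of the protein. Rab14 had the highest mean, with all 3 of its values above those of the other recycling endosome members, as did Rab32 over Rab29.

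Rab14, which acts between the Golgi apparatus, recycling endosomes and phagosomes, had the highest mean level. Its levels were 125, 66.9 and 70.0 TPM in replicates 1, 2 and 3 (87.5 ± 33.0 TPM, SD, n = 3), which placed it 434th among all protein-coding genes. Replicate 1 stood apart as the highest. The gene lies on the minus strand at chr2:35180205-35201120 (GRCm38). Among the other recycling endosome members, Rab11a, which returns receptors to the surface, had 21.8, 11.96 and 12.7 TPM. Rab4b, of the fast recycling route, had 8.13, 10.9 and 14.4 TPM and was the only one of these 3 that was lowest in replicate 1. Rab35, which sorts cargo at the plasma membrane, varied little on the TPM scale, with 6.11, 6.02 and 6.38 TPM. Rab11b had 7.18, 4.52 and 7.22 TPM. Rab4a and Rab15 were detected below 1 TPM, and Rab25, a Rab of epithelial cells, was listed at 0 in all 3 libraries. The group supplied 26.8% ± 2.70 (SD, n = 3) of the summed Rab level, more than any other role group by the mean.

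Rab8b, which delivers vesicles to the plasma membrane, came next, with 68.4, 29.5 and 49.1 TPM (49.0 ± 19.5, SD, n = 3). The gene lies on the minus strand at chr9:66843664-66919687 and had only 1 annotated transcript. Rab12, counted here with exocytosis and plasma membrane delivery but also linked to the passage of the transferrin receptor to lysosomes, had 40.4, 24.5 and 33.1 TPM. Both genes were highest in replicate 1 and lowest in replicate 2. Rab10, which has been tied to the delivery of Toll-like receptor 4 to the macrophage surface, had 13.0, 4.96 and 7.72 TPM, in the same order of libraries. An antisense gene, Rab10os, overlaps it on the other strand and had 13.6, 9.15 and 13.7 TPM. Because the strand setting of the counting was not given, reads of these 2 genes may not be separable. Rab8a and Rab44, a large member with extra domains, were also detected. The remaining 7 members of this group were not: Rab3a, Rab3b, Rab3c and Rab3d of regulated exocytosis, Rab13, Rab26 and Rab37. Rab13 came closest, with 10, 8 and 9 expected counts, while Rab3c was listed at 0. The group as a whole, Rab12 included, supplied 21.7% ± 1.60 of the Rab level, a share that depends on the placement of Rab12.

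Early endosome members supplied 19.2% ± 0.954, with 7 of 8 detected. Rab5b, which drives the fusion of early endosomes, had 37.5, 20.2 and 31.2 TPM. Rab20, a phagosomal Rab, had 31.3, 19.7 and 27.5 TPM. Replicate 2 was lowest for both genes. Rab21, which is linked to integrin uptake, had 11.9, 7.95 and 12.5 TPM. Rab5a, Rab5c, Rab22a and Rab31 lay between 3.05 and 8.99 TPM by their means. Rab17 was listed at 0 in each library.

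Late endosome, lysosome and autophagosome members supplied 15.7% ± 2.69, with 4 of 5 detected. Rab7, required for the fusion of late endosomes and phagosomes with lysosomes, had 31.1, 22.5 and 35.8 TPM. Rab7b, which acts between late endosomes and the trans-Golgi network and on Toll-like receptor 4, had 16.9, 14.8 and 17.6 TPM, a narrow spread. Rab24, tied to autophagy, had 16.4, 22.3 and 21.5 TPM and was lowest in replicate 1. It overlaps Prelid1 on the opposite strand. Rab9, which sends receptors from late endosomes back to the Golgi apparatus, had 10.2, 2.43 and 6.13 TPM. Rab9b was listed at 0.

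The largest group, ER to Golgi and Golgi transport, had 10 of its 16 members detected and supplied 12.2% ± 0.460. Its highest member, Rab1a, which carries cargo from the ER to the Golgi apparatus, had 37.0, 16.3 and 24.1 TPM. Rab6a, Rab43 and Rab2a followed, with means of 9.36, 8.08 and 5.47 TPM. Rab18, Rab34, Rab1b, Rab2b, Rab33b and Rab6b were detected at means of 0.21 to 2.76 TPM. Rab19, Rab36, Rab33a, Rab30, Rab39 and Rab39b were not detected. The standard deviation that the authors' quantification gave for a count was largest, relative to the count, for Rab43, where it reached 10.3%. That measure does not cover the choice of quantification. Rab43 shares its locus on the same strand with Gm45140, Gm44423 and 9930120I10Rik.

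Of 5 members of lysosome-related organelles, only Rab32 and Rab29 were detected. Rab32, which takes part in the defence of macrophages against bacteria, had 19.6, 7.83 and 14.1 TPM, and Rab29 had 0.90, 0.64 and 0.65 TPM. Rab27a, Rab27b and Rab38, which act on secretory granules and melanosomes, had at most 6 expected counts in any library. Rab27a and Rab27b had more in the second quantification, as given further down. Among the ciliary and ubiquitin ligase members, Rab28, Rab23 and Rab40c were detected, with means of 4.62, 1.03 and 0.807 TPM, and Rab40b was not. Rab42 was assigned to no group and was listed at 0. In all, 5 members had 0 expected counts in every library and 12 had at most 3 in every library. By mean TPM these 5 shared place 14705 of the 21901 protein-coding genes with every other gene listed at 0. The share of all genes with at most 3 counts was not taken. A count of 0 is compatible with up to 3 counts, a limit that covers counting error only and not the choice of quantification.

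Replicate 2 was lowest for many members on the TPM scale, where the summed Rab level was 594, 359 and 472 TPM in replicates 1, 2 and 3. Protein-coding genes as a whole took 22.3%, 16.4% and 20.4% of all TPM. Rescaled so that protein-coding genes alone made up the total, the summed Rab level was 2664, 2189 and 2315 TPM, so the libraries then stood closer together.

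The order of levels was resolved only coarsely. The ranges over libraries of every pair of neighbours in the order overlapped. Among the first 6 members, Rab14 above Rab8b, Rab8b above Rab12 and Rab5b above Rab20 held in 3 of 3 libraries, while Rab12 above Rab7 and Rab7 above Rab5b held in 2 of 3.

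Close paralogs often share an organelle and regulators, and most pairs were unequal on chromatin. Ratios were taken within each library as differences of log2(TPM + 0.1), which understate the contrast of low genes. The paralog with the higher mean TPM in these same libraries was put on top, so a mean ratio above 0 was largely set by that choice. Pairs of unrelated genes were not compared. Rab6a, which serves Golgi retrograde transport, exceeded Rab6b, a paralog best known from neurons, by 4.92 ± 0.16 (SD, n = 3). Rab6a had 11.8, 7.61 and 8.67 TPM and Rab6b 0.25, 0.16 and 0.22 TPM. Rab1a exceeded Rab1b, which had 1.01, 1.76 and 2.33 TPM, by 3.84 ± 1.07. Rab4b exceeded Rab4a, which had 0.81, 0.53 and 0.64 TPM, by 3.86 ± 0.60. Each of these ratios kept its direction in all 3 libraries and in the second deposited quantification, a transcript table made by another method and taken up further down. By protein-coding transcripts alone, Rab4b had 0.81, 2.17 and 2.33 TPM and Rab4a 0.81, 0.54 and 0.64 TPM, equal in replicate 1. In the second quantification such transcripts held a mean of 5.36% of the 22.45 TPM of Rab4b and 95.9% of the 1.782 TPM of Rab4a. The lead of Rab4b there thus lay outside protein-coding transcripts.

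Rab8b exceeded Rab8a, which had 10.8, 6.26 and 6.73 TPM, by 2.57 ± 0.32, and by 1.51 in the second quantification. Rab32 exceeded its relative Rab29 by 3.99 ± 0.49. Rab2a, with 6.37, 3.97 and 6.06 TPM, exceeded Rab2b, with 1.30, 1.38 and 0.97 TPM, by 2.06 ± 0.55. These 3 ratios were again of 1 direction in every library. Rab2b overlaps Tox4 on the opposite strand, and the quantification's own standard deviation reached 5.14% of its count.

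Within the Rab5 trio, which shares the early endosome, Rab5b exceeded Rab5a, with 12.6, 6.00 and 8.41 TPM, by 1.73 ± 0.16. It exceeded Rab5c, with 6.57, 9.02 and 9.72 TPM, by 1.77 ± 0.68, but by only 0.21 in the second quantification and there in 2 of 3 libraries. The lead of Rab5b over Rab5c therefore rests on the first quantification. By protein-coding transcripts alone, Rab5b had 13.0, 5.16 and 10.4 TPM there and Rab5c 6.58, 9.02 and 9.72 TPM. That order was reversed in replicate 2. Rab11a exceeded Rab11b by 1.26 ± 0.41 and Rab7 exceeded Rab7b by 0.83 ± 0.21, each in 3 of 3 libraries. Rab22a, with 6.55, 2.46 and 2.88 TPM, and Rab31, with 3.23, 2.44 and 3.47 TPM, were not separated, since the ratio was 0.25 ± 0.66 and reversed in replicate 3. In the second quantification Rab22a led in 3 of 3 libraries, by 1.51.

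**Figure D2:**
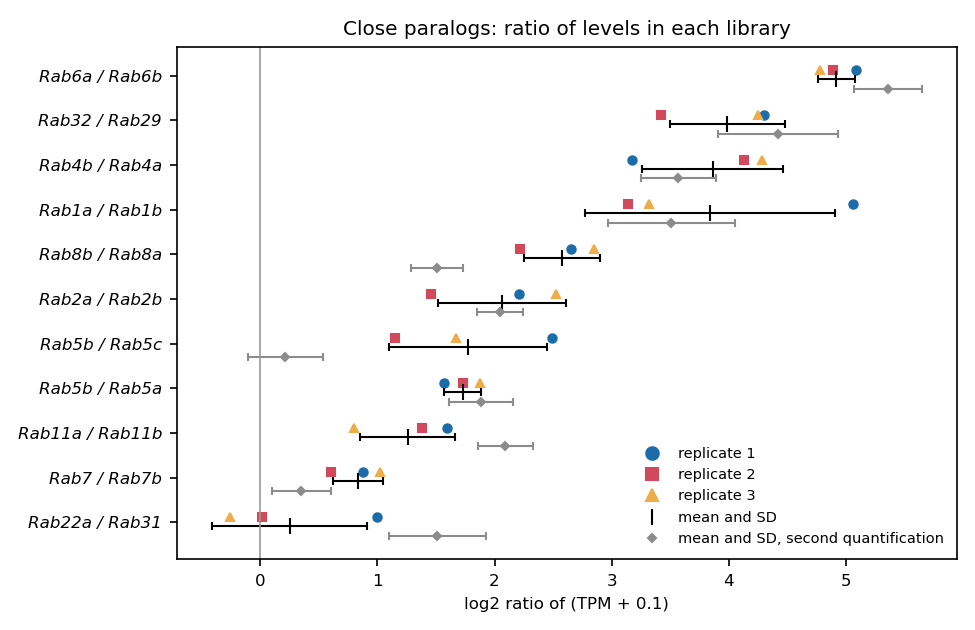
Log2 ratio of (TPM + 0.1) between close Rab paralogs that were both detected, in replicates 1 (circles), 2 (squares) and 3 (triangles), with mean and SD in black and, as grey diamonds, mean and SD in the second quantification. The paralog with the higher mean TPM in the first quantification was put on top of each ratio. All but Rab22a over Rab31 lay to the right of 0 in the 3 libraries, and Rab5b over Rab5c fell from 1.77 to 0.21 between quantifications.

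Because chromatin RNA holds transcripts before splicing is complete, the class of transcript that received the reads was examined for each gene. Of the 38 detected members, 4 had 1 annotated transcript (Rab8b, Rab20, Rab10 and Rab2a). Of the other 34, 10 were led by a transcript outside the protein-coding class, that is, such a transcript had the highest mean TPM of the gene. This was 29.4% of the members, against 36.4% of all detected protein-coding genes with more than 1 transcript. By expected counts in place of TPM it was 6 members (17.6%), against 22.7% of all. The 10 were Rab14, Rab5b, Rab1a, Rab4b, Rab6a, Rab5a, Rab8a, Rab11b, Rab44 and Rab23. Of these, 7 were led by a retained-intron transcript, while Rab1a, Rab11b and Rab44 were led by a processed transcript, a class without an annotated reading frame. A retained-intron transcript was annotated for 16 of the 34 (47.1%) and for 68.4% of all such genes. Where one was annotated, the class held a median of 41.3% of the gene's TPM in the Rab genes and 41.5% over all genes.

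The borders of the retained introns are shown because a read across them comes from RNA in which that intron is still present. Each line gives 12 exon bases in lower case and 12 intron bases in capitals, 5′ to 3′ on the strand of the gene (GENCODE M21, GRCm38). The first 5 lines are borders at the 5′ end of an intron and the last 2 borders at the 3′ end.
Rab5b-202: gtggagtatgaaGTAAGGTGGCCT
Rab14-210: gcaaccccccagGTAACCAAGGCC
Rab8a-202: cggggagaaaagGTAGGTGTTGCC
Rab5a-202: gacgcggcccagGTAAGCCGCCGT
Rab4b-205: ttgagaataagtGTGAGTTTCTGG
Rab6a-204: ATTTTCCTATAGgcaagtgtcaat
Rab23-203: GTTGCTGTGCAGtgaggaagcgga

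Rab5b-202, of 1629 bases, runs into the 5′ part of a 1344-base intron at chr10:128681480-128682823 (minus strand). It held 65.3%, 74.5% and 66.7% of the TPM of Rab5b, and the remainder was in the only other transcript of the gene. Rab8a-202 runs into the 5′ part of a 393-base intron at chr8:72175930-72176322 (plus strand) and held 76.0%, 75.9% and 71.6% of the TPM of Rab8a. Rab6a-204 begins in the 3′ part of the intron at chr7:100631854-100634644 (plus strand) and held 67.3%, 70.8% and 61.8% of the TPM of Rab6a. In these 3 genes the retained-intron transcript led in every library with a narrow spread. Rab6a overlaps Mrpl48 on the opposite strand and Gm14382 on its own, and their part in its reads was not tested.

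Rab5a-202 covers the 5′ part of an intron at chr17:53479609-53483820 (plus strand) and held 55.3%, 51.3% and 53.5% of the TPM of Rab5a. Rab4b-205 keeps the whole of a 264-base intron at chr7:27175894-27176157 (minus strand) and held 53.3%, 50.0% and 41.9%. Rab5a overlaps Pp2d1 and AC165960.2 on the opposite strand, and Rab4b overlaps Mir3101 and Gm21983 on its own. Rab23-203 begins in the 3′ part of an intron at chr1:33734859-33736799 (plus strand). It was listed at 0 in replicates 1 and 2 and held 78.5% in replicate 3, so its lead rests on 1 library of a gene with 12 to 20 expected counts.

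Rab14 divided its reads among more transcripts. Rab14-210 covers the 5′ part of an intron of 8080 bases at chr2:35192680-35200759 (minus strand) and held 24.4%, 16.8% and 18.8% of the TPM of the gene. All its retained-intron transcripts together held 90.1%, 81.1% and 82.3%. The protein-coding class of Rab14 amounted to 11.6, 11.3 and 10.5 TPM, which was nearly equal in the 3 libraries although the whole gene differed between 125 and 66.9 TPM. By protein-coding transcripts alone Rab14 was thus 8th of the 38 detected members instead of first.

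On that scale Rab8b came first, and Rab7 was second, with 31.1, 22.5 and 35.8 TPM, since Rab7 had all its TPM in the protein-coding class. Rab20, with its 1 transcript, came next, and then Rab7b, with 16.9, 14.5 and 17.6 TPM. Rab8b and Rab20, with 1 annotated transcript each, could not lose TPM to another class, while Rab14 had 13 annotated transcripts. This order therefore rests partly on the annotation. Rab5b moved from 5th to 11th, with 13.0, 5.16 and 10.4 TPM, and Rab1a from 7th to 12th, with 14.0, 5.04 and 7.69 TPM. The leading transcript of Rab1a, the processed transcript Rab1a-204 of 962 bases, held 31.3%, 43.8% and 43.1% of the gene's TPM. That of Rab11b, Rab11b-206, held 70.6%, 29.9% and 47.5%, and that of Rab44, Rab44-202, held 26.2%, 39.1% and 30.9%.

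**Figure D3:**
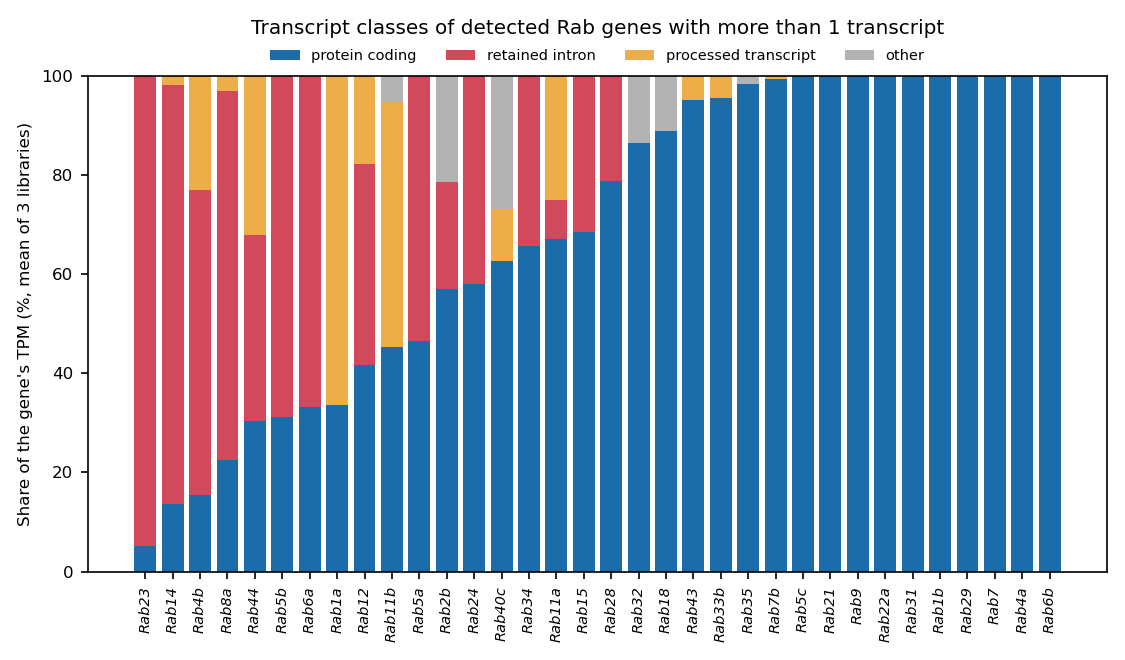
Share of each gene's TPM (percent, mean of 3 libraries) given to protein-coding, retained-intron, processed and other transcripts in the 34 detected Rab genes with more than 1 annotated transcript. Rab23 and Rab14 stand at the left with the lowest protein-coding shares, 5.19% and 13.7%, and Rab7 among those at 100%.

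Libraries were compared by CPM, that is, counts scaled to a common library size, after TMM scaling, which assumes that most genes are equal between libraries, over the 39 members with a mean of at least 10 expected counts. Rab14 had 340, 224 and 196 CPM, Rab8b 335, 209 and 275 CPM and Rab10 46.7, 25.6 and 31.6 CPM. In the other direction Rab4b had 7.34, 14.1 and 13.1 CPM and Rab5c 12.5, 23.3 and 20.3 CPM. The first 3 were highest in replicate 1 and the last 2 lowest there. Rab35, nearly equal between libraries by TPM, had 16.8, 24.5 and 20.6 CPM, a 1.46-fold range. Replicate 1 was the highest library for 19 of the 39 members, against 32.9% of all protein-coding genes that passed the same filter. Replicate 2 was highest for 11 members (38.5% of all) and replicate 3 for 9 (28.6% of all). The median shift of the members from the mean of the 3 libraries was 0.04, -0.11 and 0.04 on the log2 scale in replicates 1, 2 and 3, against -0.08, 0.05 and 0.04 over all genes. Members went both ways, with shifts in replicate 1 from -0.89 in Rab1b to 0.77 in Rab9. Without TMM scaling, by library totals, the median shifts were 0.257, -0.225 and -0.06, and the members made up 0.173%, 0.104% and 0.115% of all expected counts.

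Between the highest and the lowest library, 3 members (Rab9, Rab1b and Rab34) ranged 2-fold or more, against 18.4% of all genes that passed the filter. Rab9 had 12.3, 3.71 and 8.21 CPM, a 3.30-fold range. Rab1b had 1.44, 3.59 and 3.65 CPM and Rab34 had 1.19, 2.67 and 1.85 CPM, on 14 to 58 expected counts. Rab9 was lowest in replicate 2 and the other 2 genes were lowest in replicate 1. Next came Rab44 with 8.65, 16.8 and 12.6 CPM, Rab22a with 45.5, 24.4 and 23.5 CPM, and Rab23 with 1.11, 0.767 and 1.48 CPM. Without replicate 1, or without replicate 2, 1 member ranged 2-fold. The biological coefficient of variation, the part of the relative spread that counting does not give, had a median of 0.254 over the members (0.213 to 0.369) and 0.25 over all genes that passed. Each gene's estimate was drawn towards those of other genes, so it is not the gene's own spread. Rab28, with a 1.075-fold range, had 0.224 and Rab14, with a 1.73-fold range, 0.254.

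The difference between replicates 1 and 2 moved with base composition, a relation examined after the values had been seen. GC content was taken from the longest protein-coding transcript of each gene. Across the 39 members, the log2 difference of replicate 1 minus replicate 2 had a Spearman correlation of -0.762 with GC content (Pearson -0.754), and across 10298 protein-coding genes one of -0.420. Genes are not independent replicates and all points share the same 2 libraries, so these are descriptions. At the low end, Rab11a (39.5% GC), Rab18 (39.8%), Rab8b (40.6%), Rab1a (42.0%) and Rab5a (42.3%) differed by 0.79, 0.59, 0.68, 0.80 and 0.56, while Rab21 (42.7%) differed by 0.20. At the high end, Rab34 (59.5%), Rab4b (59.2%), Rab1b (58.9%) and Rab24 (57.9%) differed by -1.17, -0.94, -1.32 and -0.72. The pairs Rab1a and Rab1b, and Rab5a and Rab5c (54.7%, -0.90), thus fell on opposite sides. Members highest in replicate 1 had a median GC content of 45.6% (46.1% over all genes highest there), those highest in replicate 2 of 54.7% (51.8%) and those highest in replicate 3 of 48.7% (51.3%). Starting RNA was 1000 ng in replicate 1 and 250 ng in replicate 2, and the amount and the library cannot be told apart.

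For replicate 1 minus replicate 3 the correlation with GC content was -0.637 over the members and -0.404 over all genes, and for replicate 3 minus replicate 2 it was -0.451 and -0.119. The length of the gene gave a weaker relation with the first difference, at 0.221 over the members and -0.031 over all genes. Rab9 (45.6% GC) had the largest difference between replicates 1 and 2, at 1.72.

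**Figure D4:**
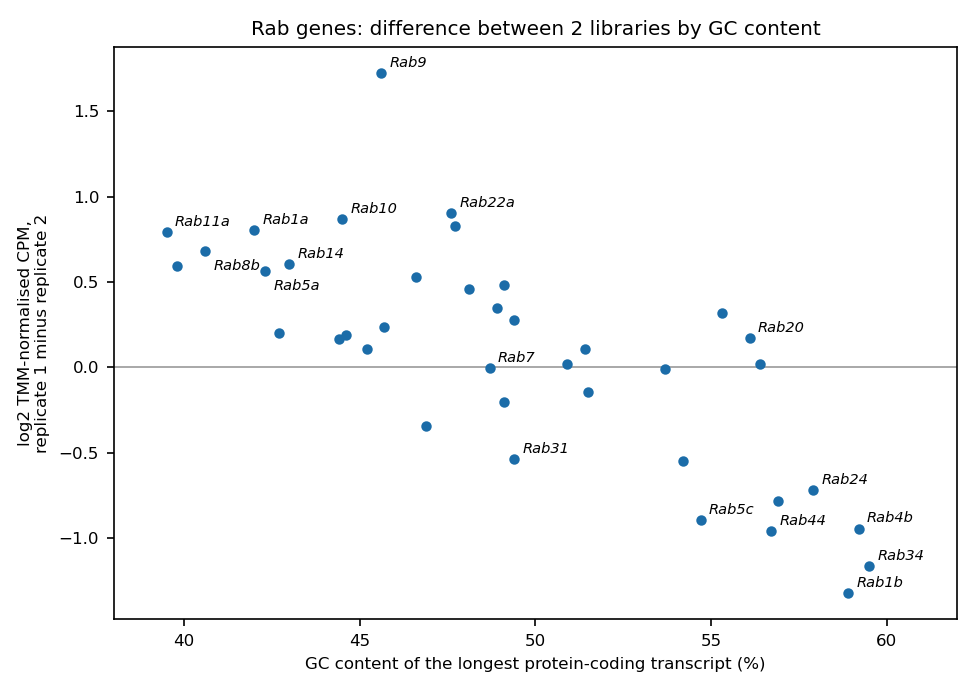
Log2 TMM-normalised CPM of replicate 1 minus replicate 2 against the GC content of the longest protein-coding transcript (percent) for the 39 Rab genes with a mean of at least 10 expected counts, each gene 1 point. Genes such as Rab11a and Rab8b lie above 0 at the left, and Rab1b and Rab34 lie below -1 at the right.

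The promoters of the members were read from RefSeq (GRCm38.p6), as windows from 250 bases before to 50 after each start, and 48 of the 59 members had an entry. The median of CG dinucleotides in such a window (for each gene, the entry with most) was 24.5 for Rab genes and 15.0 for all protein-coding genes with an entry. It was 27.0 for the 33 detected Rab genes and 11.0 for the 15 others, and 23.0 and 6.00 for detected and other genes at large. The letters GGGCGG, on either strand, were in a promoter of 78.8% of detected Rab genes, 66.7% of the other Rab genes, 69.6% of detected genes at large and 34.7% of the others. TATAAA on either strand was in 8.33% of Rab genes and 14.3% of all genes. Of the 5 members listed at 0, Rab25 and Rab17 had no GGGCGG in the window and Rab3c, Rab9b and Rab42 did. As an example picked for its contrast, the windows of Rab14, the member with the highest level, and of Rab25 are shown: the 250 bases before their starts on the strand of the gene, with GGGCGG in capitals. The first is chr2:35201121-35201370 (minus strand), with 23 CG dinucleotides, and the second is chr3:88548280-88548529 (minus strand), with 8.
Rab14: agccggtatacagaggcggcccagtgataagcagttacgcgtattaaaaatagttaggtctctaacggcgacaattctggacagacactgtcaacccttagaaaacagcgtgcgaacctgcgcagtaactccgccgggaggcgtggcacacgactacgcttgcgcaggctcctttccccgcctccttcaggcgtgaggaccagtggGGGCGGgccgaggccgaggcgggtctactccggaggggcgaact
Rab25: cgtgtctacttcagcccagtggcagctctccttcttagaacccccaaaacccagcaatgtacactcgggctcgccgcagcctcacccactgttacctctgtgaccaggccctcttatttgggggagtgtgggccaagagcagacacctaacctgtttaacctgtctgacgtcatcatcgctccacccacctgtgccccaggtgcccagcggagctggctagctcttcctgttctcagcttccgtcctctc

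The level of a Rab gene depended on how the reads had been quantified. The series held a second transcript table for each library, made by another method, from which gene levels were summed. Over the 38 detected members the second level was a median 1.68-fold higher (1.60-fold over all detected genes, 0.1 TPM added to each value). It was at least 1.5-fold higher in 25 of the 38, against 57.0% of all detected genes. It was at least 1.5-fold lower in none, against 0.176% of all detected genes. Members at 10 TPM or more numbered 25 there (42.4%, against 22.1% of all protein-coding genes). They numbered 28 (47.5%, against 31.9%) when the first TPM was rescaled over protein-coding genes. The order was largely kept, with a Spearman correlation of 0.846 across the 38 genes and 9 of the first 12 members shared.

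The 6 members that changed most were Rab34, Rab18, Rab9, Rab7b, Rab11a and Rab5c, all of them upward, as was the general direction. A level at least 4-fold higher was reached by 5 of the 38 (13.2%), against 7.61% of all detected genes. Rab34 had 2.00, 2.23 and 1.18 TPM in the first quantification and 56.8, 22.1 and 21.6 TPM in the second, where Rab34-207, a retained-intron transcript of 352 bases, held 85.0% of it. Rab18, which acts at lipid droplets and the ER, had 3.48, 1.97 and 2.84 TPM and then 36.9, 16.1 and 18.7 TPM. Rab9 rose to 65.2, 19.6 and 47.1 TPM, led by Rab9-203 of 392 bases. The gains of Rab34 and Rab9 were thus placed in transcripts far shorter than those that led in the first quantification.

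Rab7b reached 84.1, 76.0 and 64.6 TPM, Rab11a 105, 50.2 and 53.3 TPM, and Rab5c 32.5, 31.6 and 31.9 TPM in the second quantification. In all 3 a short transcript led, of 497, 397 and 412 bases, while in the first quantification their leading transcripts had 4498, 2336 and 1967 bases. The short transcripts held means of 54.7%, 18.8% and 35.9% of the second level of Rab7b, Rab11a and Rab5c. The share of late endosome, lysosome and autophagosome members in the summed Rab level rose from 15.7% to 25.1%, which passed that of the recycling group (23.1%). In the second quantification 15 of the 34 members with more than 1 transcript were led outside the protein-coding class (49.7% of all such genes), 8 of them in both, and the leading transcript was the same in 14.

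Detection also depended on the quantification: 11 of the 21 members not detected in the first had at least 10 estimated counts in each library in the second (52.4%), and none was lost. Of all protein-coding genes not detected in the first, 30.8% were detected in the second. Detected members then numbered 49 of 59 (83.1%), against 61.3% of all protein-coding genes. Rab9b, listed at 0 in the first, had 519, 784 and 799 estimated counts in the second, or 9.06, 6.75 and 8.98 TPM, all in its 1 transcript. Rab3c, also listed at 0, had 248, 644 and 627 estimated counts. Rab30, with 6, 1 and 5 expected counts in the first, had 202, 578 and 417. Rab27b had 209, 163 and 189 estimated counts and Rab27a 25.25, 32.2 and 40.8, while Rab38 had 3, 3 and 1. Rab37, which overlaps Cd300lf on the opposite strand, had 3, 1 and 2 expected counts and then 95.9, 143 and 164, of which nearly all lay in a retained-intron transcript. Whether these genes were transcribed from their own strand was not tested, since the strand setting was not given. Rab25, Rab17, Rab42, Rab39b and Rab3a stayed below 0.1 TPM by the mean in both.

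**Figure D5:**
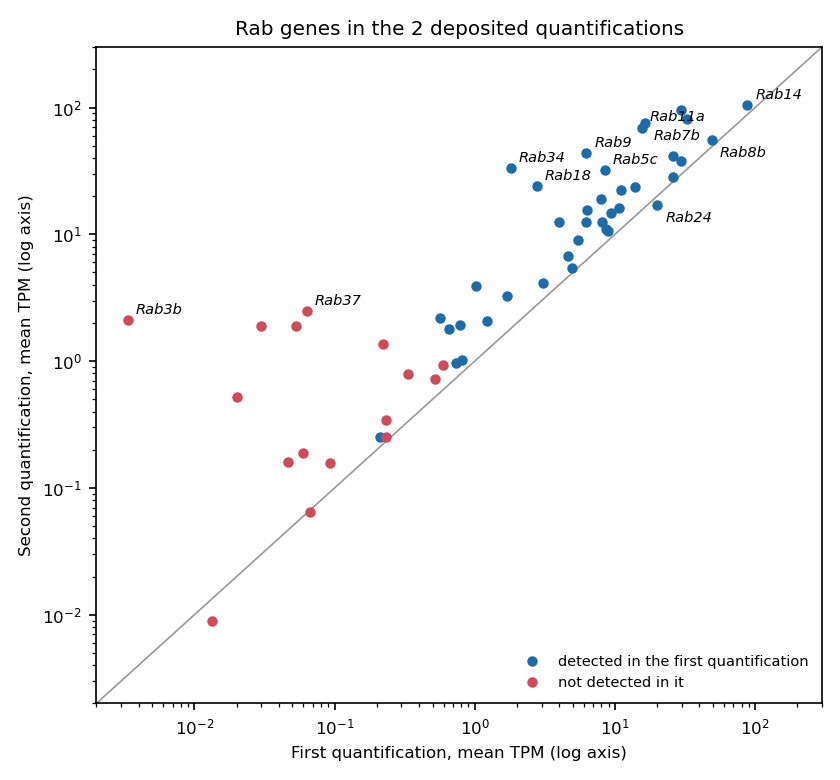
Mean TPM of 54 Rab genes in the first and the second quantification (both log axes), with the line of equal values, detected genes in blue and the others in red. The 5 genes listed at 0 in the first are not drawn, most points lie above the line, and Rab34 is the detected gene farthest above it.

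The genes that control the Rab cycle were taken from lists chosen by function, and their shares were not tested against that of the Rabs. Of 35 guanine nucleotide exchange factors, 33 were detected, with a median of 6.67 TPM. The highest were Dennd1a (236, 138 and 195 TPM), an activator of Rab35, Rabgef1 (129, 93.3 and 131 TPM), an activator of Rab5, Dennd5a (143, 75.6 and 121 TPM) and Gapvd1 (92.8, 89.8 and 96.3 TPM), also of Rab5. All 4 lay above both Rab35 and Rab5b in every library. The lowest detected were Rabif at a mean of 0.55 TPM and Dennd5b at 0.233 TPM.

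Of 38 GTPase-activating proteins, 35 were detected, with a median of 9.75 TPM. Rab3gap2 led with 106, 94.4 and 88.2 TPM, followed by Tbc1d2b (78.4, 46.3 and 49.2 TPM), Tbc1d4 (60.4, 44.9 and 58.5 TPM) and Tbc1d5, which acts on Rab7 (48.2, 26.3 and 38.4 TPM). Tbc1d12 and Tbc1d8b were the lowest detected, at 0.637 and 0.380 TPM. Of 7 genes that attach the lipid or carry Rabs off membranes, 6 were detected. Gdi2, which draws Rabs off membranes, had 29.4, 14.2 and 20.0 TPM. The lipid transferase subunit Rabggtb had 13.4, 7.42 and 10.1 TPM and the escort protein Chm had 13.95, 5.08 and 8.51 TPM. Rabggta and Chml were the lowest detected, at means of 5.31 and 1.203 TPM.

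Of 45 effectors and kinases, 35 were detected, with a median of 5.37 TPM. The motor Myo5a (350, 299 and 347 TPM), Appl2 (205, 171 and 225 TPM), the early endosome tether Eea1 (181, 117 and 142 TPM) and Rab11fip1 (54.2, 34.2 and 51.7 TPM) were highest. Eea1, which binds Rab5, thus lay above the sum of Rab5a, Rab5b and Rab5c in every library. Among effectors of Rab27 and Rab3, named after their values were seen, Sytl1, Sytl2, Sytl4, Sytl5, Mlph, Myrip, Rph3a, Rims1 and Rims2 were not detected, Sytl3 was detected at a mean of 0.667 TPM and Unc13d at 5.78 TPM. In the second quantification Mlph, Sytl4 and Rims2 had means of 1.49, 1.40 and 1.08 TPM. The rest of those not detected had at most 0.458 TPM there. The lowest detected effectors were Bicd1 at 0.223 TPM and Rab11fip4 at 0.133 TPM.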

How the data were processed

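Chromatin-fraction RNA of 3 libraries, 1 group, was analysed. The deposited gene and transcript tables of the first kind gave expected counts (model estimates, often with decimals) and TPM, per the file headers. The deposited transcript tables of the second kind gave estimated counts and TPM, per the file headers, and are the second quantification; 86 genes, none of them Rab genes, had no entry there. The build was mm10 and the annotation M21, per the labels and the deposited notes. Aligner, quantifiers, versions and strandedness are not given in the sources used here. Rows naming no mouse gene held 1.28%, 0.427% and 0.383% of expected counts in replicates 1, 2 and 3 and were left out. The second quantification held 16644525, 30070348 and 25184406 estimated counts.

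With 1 group there was no contrast, so nothing was tested: levels are given per library with mean and SD, and counts of members beside the same share over all protein-coding genes. TMM factors and, with an intercept as the whole design, the biological coefficient of variation came from rounded expected counts in edgeR 4.0.16 under R 4.3.3; 0.5 was added to each count. On simulated data, with a set of genes lowered in 1 library and the rest equal, the scaling step returned median log2 differences near those put in. The simulation held no shift linked to base composition. Ratios of TPM used a pseudocount of 0.1.

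The members, role groups, regulator and marker lists and all rules were chosen with earlier results of these data known. Values in every library are given for the 12 members with the highest mean TPM, the 6 detected members with the largest range between libraries, the 6 with the largest fold between quantifications, those led by a transcript outside the protein-coding class, detected close paralogs, and the 4 highest genes of each regulator list (means for the 2 lowest detected), except an item that is not reported here. Protein sequences were not used here, so the cysteines were read from coding sequences. GC content, protein-coding levels and promoter shares were added after values had been seen. Alternatives were the second quantification, DESeq2 1.42.0 size factors, library totals, TPM rescaled over protein-coding genes, other minimum counts and pseudocounts, and leaving out each library.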

Additional observations from a re-analysis of the deposited data

How the results depend on the processing

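The median Rab level of 1.70 TPM was 4.16 TPM in the second quantification, 8.89 TPM with TPM rescaled over protein-coding genes and 7.11 TPM over detected members only. The members at 10 TPM or more numbered 13, then 25 in the second quantification and 28 after rescaling. Scaling to library totals gave shifts of 0.257, -0.225 and -0.06 in replicates 1, 2 and 3, the last with its sign reversed. The shift of replicate 1 reversed to -0.005 in the second quantification, and that of replicate 3 to -0.011 without replicate 2 (0.043 without replicate 1). Members ranging 2-fold or more numbered 3, and 10 with library totals, 6 in the second quantification, 13 with no filter on counts, 1 with a mean of at least 50 counts and 1 to 3 when each library was left out. Members led by a transcript outside the protein-coding class numbered 10 by TPM and 6 by expected counts. Rescaling raises every gene by construction, and the causes of the other differences were not tested. The second quantification gave a higher level for 37 of the 38 detected members, with a median fold of 1.68, against 1.60 over all detected genes. Whether depth limited the low members was not tested. Rab9b and Rab3c, listed at 0 in the first quantification, had 248 to 799 estimated counts in the second. No paired analysis was possible because the series holds 1 group.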

Other observations

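Other small GTPases, the Arf and Arl genes, were set beside the Rab genes. Of 26 of these, which act in vesicle coats and cilia, 18 were detected, with a median of 2.33 TPM over the family. Their share of detected genes was 69.2%, against 64.4% for the Rabs, and the difference was not tested.

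Rab-like genes outside the naming rule, chosen after their values were seen, were led by Rabl6, with 8.45, 8.31 and 9.37 TPM, and Cracr2a, a large atypical Rab of immune cells, with 5.39, 7.32 and 5.49 TPM. Rabl3, Rabl2 and Ift22 were detected at means of 1.24, 1.07 and 0.983 TPM. Ift27, a Rab-like subunit of the ciliary transport complex, had 0, 1 and 0 expected counts and Rasef was listed at 0. Processed pseudogenes of Rab5a and Rab9b were listed at 0, that of Rab7 had 0, 5.79 and 0 expected counts and that of Rab11b 0, 7.57 and 6.55.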
